A study of Mus musculus with 6 samples.

Results

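The MYC, MAX and MXD network is the set of basic helix-loop-helix leucine zipper proteins that pair with MAX or with its relative MLX on DNA. Its 10 members described here were listed by name as Myc, Mycn, Mycl, Max, Mxi1, Mxd1, Mxd3, Mxd4, Mga and Mlx, and their rows were found by gene symbol in a table of raw counts. All 10 were among the 55487 genes of that table, and all 10 were among the 15748 genes that passed the filter on low counts. No threshold on a value was used, but the list was selected from known network genes after results on the same counts at 0, 3 and 6 h had been seen, so the values below describe the members and are no independent evidence for their directions.

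D6AdP, a line of mouse embryonic stem (ES) cells, was the source of every library. In it DDX6, an RNA helicase of mRNA decay and translational repression, can be removed on demand. Both Ddx6 alleles carry DDX6-AID-mCherry, 1 Dcp1a allele carries DCP1a-EGFP, and a transgene, OsTIR1-FLAG, supplies the F-box protein that, once auxin is added, marks proteins bearing the degron for destruction by the proteasome. All groups share this genotype, the line is 1 cell line, and the groups differ in time with 500 nM of the auxin analog 5-Ph-IAA, which is 0, 3 or 6 h, with 2 libraries for each time and 6 in all. Cells grew with leukemia inhibiting factor, PD0325901, which inhibits MEK, and CHIR99021, which inhibits GSK3, on mitomycin-treated fibroblast feeder cells. The treated times were compared with 0 h in the same line, and libraries of the parental line or of cells without the degron were not analysed here, so time in culture, the auxin analog and the loss of DDX6 cannot be told apart. No label says whether the 2 libraries of a time came from separate cultures, so a p-value here reflects variation among these 6 libraries that may be only technical.

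Library totals lay between 16357142 and 21846959 counts, so a count of 3 was worth 0.137 to 0.183 CPM, the usual unit of counts scaled to library size. All 10 ES cell markers were present in every library, led by Dppa5a, Tdgf1 and Nanog in the mean over all 6 libraries, with summed levels of 4856 and 5081 CPM at 0 h, 5256 and 5194 CPM at 3 h, and 4733 and 4915 CPM at 6 h. Of these markers 4 rose and 4 fell at 6 h against 0 h, where 10% of all genes tested rose and 12.3% fell. All 26 fibroblast markers were present too, with none at 0 counts, led by Fn1, Col1a1 and Thbs1 in that mean. Their summed levels were 26990 and 24610 CPM at 0 h, 23840 and 23320 CPM at 3 h, and 26570 and 23820 CPM at 6 h. Feeder RNA was therefore present in every library, and its share of the counts of each member was not measured. The median fibroblast marker differed by -0.14 on the log2 scale in 3 h over 0 h libraries, by -0.01 in 6 h over 0 h, where 1 rose, and by 0.13 in 6 h over 3 h, where 9 of the 26 rose and none fell. Of all genes tested 9.89% rose and 11.8% fell at 6 h against 3 h.

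MYC, MYCN and MYCL activate transcription as dimers with MAX, and MAX is the partner without which they do not bind their DNA element, the E-box CACGTG. The MXD proteins, which include MXI1, and MNT compete for MAX and recruit SIN3 corepressors, while MGA, the largest protein of the network, pairs with MAX inside the non-canonical Polycomb complex PRC1.6, which keeps germline genes silent in ES cells. MLX is the partner of the nutrient sensors MLXIP and MLXIPL and also binds MNT, MXD1 and MXD4. In mouse ES cells Myc is a target of LIF and STAT3 signalling, and either Myc or Mycn can sustain self-renewal, so the paralogs are commonly read together.

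DDX6 works downstream of microRNAs, and the seeds of the microRNA families best known from mouse ES cells are shown here. Matches to them lie in the 3′ UTRs of several members. Of these, Mxi1, Mycn and Mga were called at 6 h against 0 h, and Mxd1 and Mxd3 were not. The mature sequences are from RefSeq (GRCm38.p6), with the seed, bases 2 to 8, in capitals.
mmu-miR-291a-3p: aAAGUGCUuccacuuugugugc
mmu-miR-294-3p: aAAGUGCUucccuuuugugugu
mmu-miR-302d-3p: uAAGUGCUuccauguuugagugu
mmu-miR-20a-5p: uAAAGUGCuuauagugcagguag
The miR-290 and miR-302 families share the seed AAGUGCU, matched by AGCACTT in an mRNA, and miR-17 and miR-20a share AAAGUGC, matched by GCACTTT. MicroRNA levels were not measured in these libraries.

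In the longest annotated 3′ UTR of each gene (GENCODE M21, build GRCm38), AGCACTT was found 3 times in Mga, 2 times in Mxi1 and 1 time each in Mycn, Mxd1 and Mxd3. No match was found in Myc, Mycl, Max, Mxd4 or Mlx. Sites are written below for Mga, Mxi1 and Mycn, the members with a match that were called at 6 h against 0 h. They run 5′ to 3′ with the match in capitals. Each is named by its first matching base, counted from the start of the 3′ UTR.
Mga 485: acacttgtaattccAGCACTTa
Mga 1787: ctagacaggtcatcAGCACTTa
Mga 4135: ttgcttttgaagaaAGCACTTt
Mxi1 1138: acatagttacgttcAGCACTTg
Mxi1 1685: tttgtgcctgcaaaAGCACTTc
Mycn 860: gtgctgcaccttagAGCACTTt
The matches at Mga 4135 and Mycn 860 overlap a GCACTTT match that starts 1 base later, and Mxi1 holds a separate GCACTTT at 3345. Over the 13515 genes that passed the filter on low counts and had such a 3′ UTR, 17.6% held AGCACTT and 14.5% held GCACTTT. The members' 3′ UTRs are of very different length, from 466 bases in Myc to 4616 bases in Mga, against a median of 1202 bases over those 13515 genes. Among 3′ UTRs of similar length, at least 3 AGCACTT matches were held by 3.50% of 1001 genes for Mga, at least 2 by 8.71% of 1263 genes for Mxi1, and at least 1 by 11% of 1985 genes for Mycn. At least 1 was held by 5.52% of 1595 genes for Mxd3 and by 36.8% of 1400 genes for Mxd1. Mxd3 and Mxd1 hold a match and were not called at 6 h against 0 h. Of the members called at 6 h against 0 h, Mxi1 and Mycn rose and Mga fell with a match, Myc and Max fell without one, and a match is a description of the letters and not a site in use. The AU-rich pentamer ATTTA, which 70.7% of those 13515 genes held, occurred 9 times in Mxi1 and 5 times each in Mga and Mxd1. Myc, Mycl and Mlx each held it 2 times, Mycn and Max 1 time, and Mxd3 and Mxd4 did not hold it. Among 3′ UTRs of similar length, at least as many matches were held by 35% for Mxi1, 74.9% for Mga and 65.8% for Mxd1. That share was 19.2% for Myc, 74.4% for Mycl, 47.7% for Mlx, 70.8% for Mycn and 81% for Max.

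The E-box is the element the network itself binds, so the members' promoters were searched for CACGTG and for its part ACGTG on either strand in RefSeq windows (GRCm38.p6) that run from 250 bases before to 50 bases after an annotated start. Windows were matched for 9 of the 10 members. CACGTG was in the windows of Max, Mxd4 and Mlx, and in 7.15% of all 32851 windows. ACGTG without CACGTG was in the window of Mga and in 2 of the 3 windows of Mxi1, and ACGTG in any form was in 19.6% of all windows. Neither was in the windows of Mycn, Mycl, Mxd1 or Mxd3. Written below are Mxi1, the member with the largest rise, and Mga and Max, which fell together, with ACGTG or CACGTG in capitals.
Mxi1, chr19:53329163-53329462, plus strand: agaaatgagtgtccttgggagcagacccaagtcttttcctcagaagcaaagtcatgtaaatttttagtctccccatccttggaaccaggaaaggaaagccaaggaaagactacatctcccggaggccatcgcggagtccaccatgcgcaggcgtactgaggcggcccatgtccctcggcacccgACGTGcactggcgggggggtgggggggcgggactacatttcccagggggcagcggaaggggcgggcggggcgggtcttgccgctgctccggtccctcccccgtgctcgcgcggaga
Mga, chr2:119896978-119897277, plus strand: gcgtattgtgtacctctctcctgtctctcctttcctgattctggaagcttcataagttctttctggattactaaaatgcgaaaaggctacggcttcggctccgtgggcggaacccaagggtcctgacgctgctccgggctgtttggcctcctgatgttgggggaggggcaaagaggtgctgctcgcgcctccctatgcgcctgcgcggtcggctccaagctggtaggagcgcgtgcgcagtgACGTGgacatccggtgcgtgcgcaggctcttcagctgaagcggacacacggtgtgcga
Max, chr12:76962199-76962498, minus strand: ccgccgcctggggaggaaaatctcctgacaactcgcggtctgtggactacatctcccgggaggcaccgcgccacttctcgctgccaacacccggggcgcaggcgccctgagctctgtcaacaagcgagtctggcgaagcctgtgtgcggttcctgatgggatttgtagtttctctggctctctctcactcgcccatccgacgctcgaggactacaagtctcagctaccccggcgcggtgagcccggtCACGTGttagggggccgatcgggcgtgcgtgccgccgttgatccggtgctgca

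Before treatment the members spanned a wide range of mRNA levels. Levels of different genes are compared as TMM-scaled CPM per kilobase of summed exon length. At 0 h Mga was highest with 29.7 ± 0.266 CPM per kb, followed by Max with 25.3 ± 1.65, Mycn with 24.0 ± 1.42, Mlx with 21.1 ± 1.19 and Myc with 16.6 ± 0.143 (SD, n = 2 each). Then came Mxi1 with 3.74 ± 0.105 CPM per kb, Mxd4 with 2.90 ± 0.110, Mycl with 2.59 ± 0.0242, Mxd3 with 2.43 ± 0.159 and Mxd1 with 1.16 ± 0.0672 (SD, n = 2 each). Of the neighbours in this order, Max and Mycn overlapped between libraries at 0 h and again at 3 h, while the other neighbouring pairs did not. MYCN was thus the leading MYC paralog by mRNA, and each of the MXD repressors was below Myc and Mycn. The order had shifted at 6 h, when Mycn stood first with 29.4 ± 1.99 CPM per kb, ahead of Mga with 23.4 ± 0.774 and Max with 22.2 ± 1.36 (SD, n = 2 each). Mga and Max overlapped between libraries at 6 h, as did Mycl and Mxd3, and Mycn overlapped neither Mga nor Max.

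**Figure D1:**
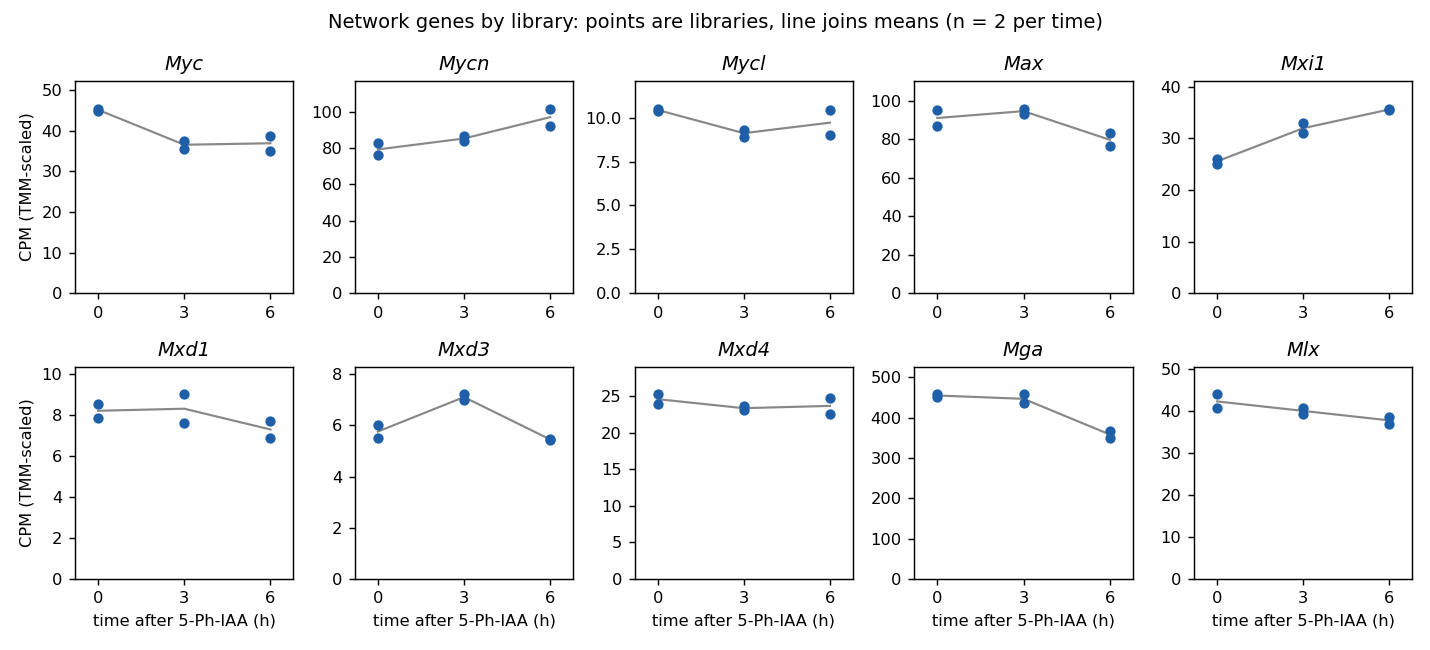
TMM-scaled CPM of each member in each of the 6 libraries at 0, 3 and 6 h with 5-Ph-IAA, with 1 panel per gene, points for libraries and lines for the mean of 2 libraries. Mxi1 is higher at 3 h than at 0 h in both libraries and higher still at 6 h (35.8 and 35.5 CPM), Myc is lower at both treated times, and Mga and Max stand near their 0 h level at 3 h and below it at 6 h.

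After 3 h 1 member, Mxi1, rose against 0 h and none fell in edgeR's quasi-likelihood test with Benjamini-Hochberg adjustment at 0.05 over all genes tested. Of all genes tested 0.140% were called at 3 h, with 0.0508% higher and 0.0889% lower. By 6 h against 0 h 2 members, Mxi1 and Mycn, rose and 3, Mga, Myc and Max, fell, where 22.3% of all genes were called, 10% higher and 12.3% lower. Between the treated times Mycn rose and Mga, Max and Mxd3 fell, where 21.7% of all genes were called, 9.89% higher and 11.8% lower. The changes were small, between -0.34 and 0.48 on the log2 scale at 6 h against 0 h, and lay within the band of -0.47 to 0.57 that held the central 90% of all genes. The median member differed by -0.14 at 6 h against 0 h, beside 0.0019 over all genes tested.

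Mxi1 (ENSMUSG00000025025, chr19:53310518-53375810, plus strand), the MAX partner that recruits SIN3 and opposes MYC, was the member that rose most. It had 25.0 and 26.1 CPM at 0 h, 31.0 and 32.9 CPM at 3 h, and 35.8 and 35.5 CPM at 6 h. No library of one time overlapped another time, and the rise was already present at 3 h. At 3 h Mxi1 was higher than at 0 h by 0.32 ± 0.061 on the log2 scale (SE, edgeR quasi-likelihood adjusted p = 0.0464). Against 0 h the rise at 6 h was 0.48 ± 0.062 (SE, edgeR adjusted p = 3.42e-05), a ratio of 1.39, while 6 h differed from 3 h by 0.16 ± 0.060 (SE, edgeR adjusted p = 0.0761). The 3 h call is close to the threshold and was lost without replicate 1 of 0 h (edgeR adjusted p = 0.24), without replicate 1 of 3 h (edgeR adjusted p = 0.229) and without replicate 2 of 3 h (edgeR adjusted p = 0.478). It was also lost in DESeq2 (adjusted p = 0.426) and with the fibroblast marker level as a covariate, which gave 0.29 ± 0.093 (SE, edgeR adjusted p = 0.303). The mean marker level was itself lower at 3 h (8.16 and 8.14 log2 CPM) than at 0 h (8.35 and 8.24). That fit therefore separates marker level from time poorly, and its SE was larger than the 0.061 of the main fit. The 6 h call held in all 16 alternatives tried.

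The MYC paralogs went in opposite directions. Myc (ENSMUSG00000022346, chr15:61985391-61990374, plus strand) had 44.8 and 45.4 CPM at 0 h, 37.5 and 35.5 CPM at 3 h, and 38.8 and 35 CPM at 6 h. Both treated times lay below both 0 h libraries, and the treated times overlapped each other. Its log2 fold change was -0.31 ± 0.059 at 3 h against 0 h (SE, edgeR adjusted p = 0.0518), just short of the threshold, and -0.29 ± 0.060 at 6 h against 0 h (SE, edgeR adjusted p = 0.00213). Between the treated times the difference was 0.01 ± 0.061, with an edgeR adjusted p of 0.909. In the 3 h comparison Myc passed in 7 of 16 alternatives, with adjusted p between 0.00366 and 0.731, and at 6 h against 0 h it passed in all 16. Where RNA from ES cells and feeder cells is mixed, fewer cells of a type and less RNA per cell cannot be told apart, here and for the members below.

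Mycn (ENSMUSG00000037169, chr12:12936093-12941914, minus strand), the paralog prominent in early embryos, had 75.8 and 82.5 CPM at 0 h, 83.8 and 86.6 CPM at 3 h, and 92.3 and 102 CPM at 6 h. The times did not overlap, and the order of the means was that of time. Against 0 h the difference was 0.11 ± 0.053 at 3 h (SE, edgeR adjusted p = 0.493) and a rise of 0.29 ± 0.053 at 6 h (SE, edgeR adjusted p = 0.000779). In the fit of all 6 libraries, 6 h was higher than 3 h by 0.19 ± 0.053 (SE, edgeR adjusted p = 0.0178). Dropping 3 h replicate 1 (0.17), 3 h replicate 2 (0.22) or 6 h replicate 2 (0.12) lost that call. So did DESeq2 (adjusted p = 0.0937). The difference between the treated times was 0.12 without replicate 2 of 6 h and 0.35 with the fibroblast marker level as a covariate (edgeR adjusted p = 0.000228). Mycl (ENSMUSG00000028654, chr4:122995652-123002485, plus strand), the least abundant of the 3 paralogs, ranged between 8.93 and 10.5 CPM over the 6 libraries and was not called at any time, with -0.11 ± 0.106 at 6 h against 0 h (SE, edgeR adjusted p = 0.509).

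Together the MYC paralogs had summed levels per length between 41.6 and 46.0 CPM per kb, with a different makeup at the treated times than at 0 h. The sum of Myc, Mycn and Mycl was 42.1 and 44.3 CPM per kb at 0 h, 41.6 and 41.6 CPM per kb at 3 h, and 44.9 and 46.0 CPM per kb at 6 h. The times did not overlap in this sum, which was lowest at 3 h and highest at 6 h. Myc made up 39.2% and 37.7% of that sum at 0 h, 33.2% and 31.5% of it at 3 h, and 31.8% and 28.0% of it at 6 h. Both treated times lay below 0 h in this share and did not overlap it. As a ratio per length, Mycn over Myc was 1.395 and 1.498 in the 0 h libraries, 1.84 and 2.01 in those of 3 h, and 1.96 and 2.39 in those of 6 h, where the treated times overlapped each other and neither overlapped 0 h. These sums and shares were built after the members' values were known and carry no test of their own.

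**Figure D2:**
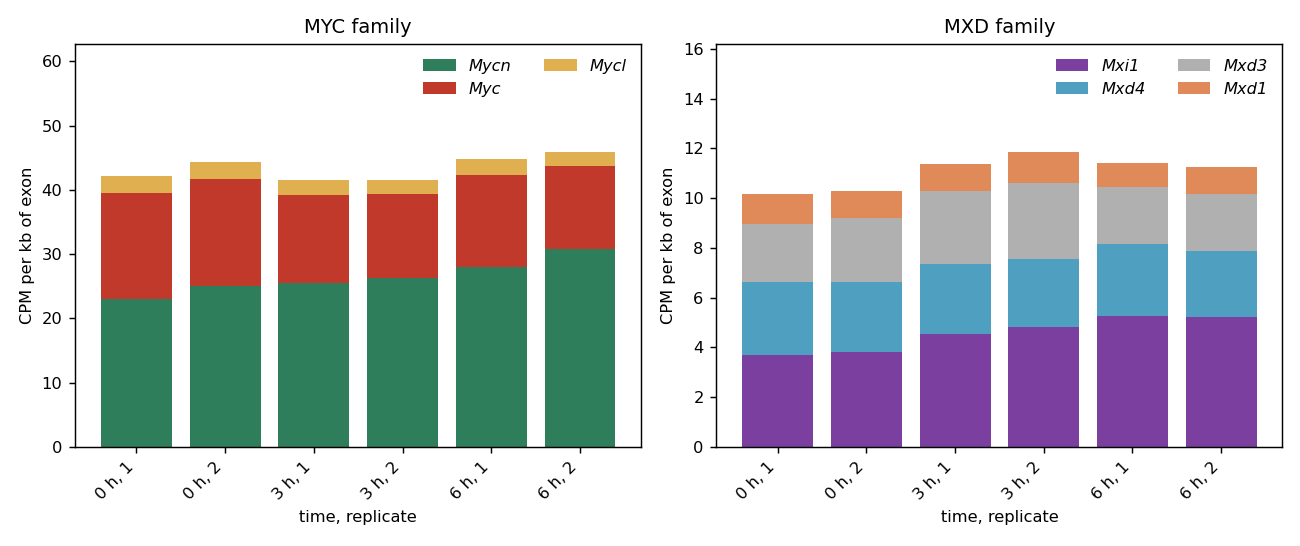
Stacked bars of CPM per kb of exon for the MYC genes (left) and the MXD genes (right), 1 bar for each of the 6 libraries at 0, 3 and 6 h, with a colour for each gene. The share of Myc in the summed MYC paralogs is lower at both treated times (28.0% and 31.8% at 6 h) than at 0 h (37.7% and 39.2%), and the share of Mxi1 in the summed MXD genes is higher (45.9% and 46.2% at 6 h, 36.1% and 37.1% at 0 h).

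Max (ENSMUSG00000059436, chr12:76937269-76962201, minus strand), the shared partner, fell at the last time. It had 86.9 and 95.3 CPM at 0 h, 93.4 and 95.9 CPM at 3 h, and 76.3 and 83.2 CPM at 6 h. The 0 h and 3 h libraries overlapped, and both 6 h libraries lay below all the others. At 3 h against 0 h the difference was 0.05 ± 0.052 (SE, edgeR adjusted p = 0.754). At 6 h Max fell by 0.19 ± 0.053 against 0 h (SE, edgeR adjusted p = 0.0145), and against 3 h it fell by 0.25 ± 0.053 (SE, edgeR adjusted p = 0.00327). Its call against 0 h was lost without replicate 2 of 0 h (-0.12) and without replicate 1 of 6 h (-0.12). It was also lost in edgeR without the filter on low counts and in DESeq2 (adjusted p = 0.067). The call against 3 h was lost without replicate 2 of 3 h (edgeR adjusted p = 0.0522) and with the fibroblast marker level as a covariate (-0.09, edgeR adjusted p = 0.395).

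Of the other MXD repressors, Mxd1 (ENSMUSG00000001156, chr6:86647042-86669161, minus strand), Mxd3 (ENSMUSG00000021485, chr13:55325168-55329823, minus strand) and Mxd4 (ENSMUSG00000037235, chr5:34173883-34187720, minus strand), none was called against 0 h. Mxd3, which is known from proliferating progenitors, had 5.50 and 6.03 CPM at 0 h, 7.001 and 7.217 CPM at 3 h, and 5.43 and 5.48 CPM at 6 h. Both 3 h libraries were above all the others. Its difference was 0.30 ± 0.123 at 3 h against 0 h (SE, edgeR adjusted p = 0.388), and at 6 h it fell by 0.38 ± 0.128 against 3 h (SE, edgeR adjusted p = 0.0418), a call that held in 8 of 16 alternatives and in 2 of the 6 fits that left out a library. Mxd1, linked to cell differentiation, lay between 6.87 and 9.02 CPM in all libraries, with -0.16 ± 0.126 at 6 h against 0 h (SE, edgeR adjusted p = 0.385). Mxd4, which can pair with MAX or MLX, lay between 22.5 and 25.2 CPM, with -0.06 ± 0.071 at 6 h against 0 h (SE, edgeR adjusted p = 0.623). Summed per length, the 4 MXD genes had 10.2 and 10.3 CPM per kb at 0 h, 11.4 and 11.9 CPM per kb at 3 h, and 11.4 and 11.3 CPM per kb at 6 h. Mxi1 made up 36.1% and 37.1% of that sum at 0 h, 40.0% and 40.7% of it at 3 h, and 45.9% and 46.2% of it at 6 h, with no overlap between times. Against the MYC paralogs the summed MXD genes stood at 0.242 and 0.233 per length in the 0 h libraries, 0.274 and 0.286 in those of 3 h, and 0.255 and 0.245 in those of 6 h, so that the 3 h libraries were highest. The ratio leaves out Mnt, which also competes for MAX and stood above the summed MXD genes. Mnt averaged 21.2 CPM per kb at 0 h, 20.5 at 3 h and 12.8 at 6 h, so the ratio does not describe all MAX-binding repressors.

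Mga (ENSMUSG00000033943, chr2:119897228-119969581, plus strand), the scaffold of PRC1.6 that also carries a T-box DNA-binding domain, fell most. It had 452 and 458 CPM at 0 h, 436 and 458 CPM at 3 h, and 350 and 367 CPM at 6 h. The 0 h and 3 h libraries overlapped, and both 6 h libraries lay below them. At 3 h against 0 h the difference was -0.03 ± 0.035 (SE, edgeR adjusted p = 0.838). At 6 h Mga fell by 0.34 ± 0.036 against 0 h (SE, edgeR adjusted p = 3.5e-06), a ratio of 0.788, and against 3 h it fell by 0.32 ± 0.036 (SE, edgeR adjusted p = 1.13e-05). Both calls held in all 16 alternatives.

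Mlx (ENSMUSG00000017801, chr11:101087277-101092207, plus strand), the hub of the parallel nutrient-sensing arm, had 40.5 and 43.9 CPM at 0 h, 40.6 and 39.3 CPM at 3 h, and 36.9 and 38.5 CPM at 6 h. Both 6 h libraries lay below all the others. Its difference at 6 h against 0 h was -0.16 ± 0.058 (SE, edgeR adjusted p = 0.0531), short of the threshold, and it passed in 3 of 16 alternatives. Of its exons 19.3% overlap Psmc3ip on the opposite strand. For Mxd4 the overlap with an opposite-strand gene was 6.06%, for Mxd3 with Prelid1 4.43% and for Mxi1 2.84%, and the other 6 members had none. The kit keeps strand, but the strand setting of the counting is not given in the sources used here, so reads from these stretches may belong to either gene.

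**Figure D3:**
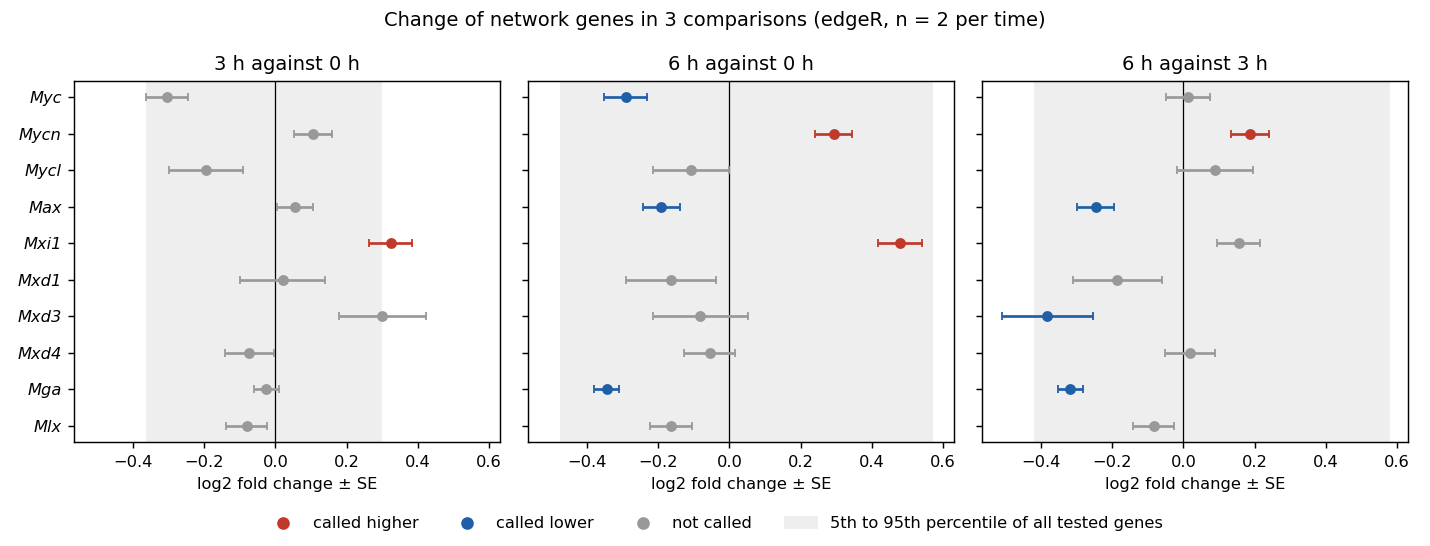
log2 fold change of each member with its SE for 3 h against 0 h, 6 h against 0 h and 6 h against 3 h, marked by whether edgeR's adjusted p was under 0.05. At 6 h against 0 h Mxi1 (0.48) and Mycn (0.29) are called higher and Mga (-0.34), Myc (-0.29) and Max (-0.19) lower, and at 3 h against 0 h Mxi1 (0.32) is called.

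Overlap between libraries gave a looser count. After 3 h 6 members had no overlap with 0 h, 3 higher and 3 lower, where 42.3% of all genes had none, 20.5% higher and 21.8% lower. In the 6 h against 0 h comparison 8 members had none, 2 higher (Mxi1 and Mycn) and 6 lower, where 59.5% of all genes had none, 29.6% higher and 29.9% lower. For 6 h against 3 h the count was 6 members, 2 higher and 4 lower, where 60.8% of all genes had none, 30.8% higher and 30.0% lower.

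The remaining genes of the network include its other MAX-binding repressor and the partners of MLX. Mnt, which pairs with MAX or MLX and represses MYC targets, was further from its 0 h level at 6 h than any of the 10 members. It had 97.2 and 99.0 CPM at 0 h, 95.1 and 94.5 CPM at 3 h, and 58.3 and 60.6 CPM at 6 h. Both 6 h libraries lay below the rest, and at 6 h Mnt fell by 0.72 ± 0.044 against 0 h (SE, edgeR adjusted p = 1.26e-08), a ratio of 0.606, while its difference at 3 h against 0 h was -0.05 (edgeR adjusted p = 0.725). Per length, Mnt averaged 12.8 CPM per kb at 6 h, against 21.2 CPM per kb at 0 h. Mlxip, the glucose-responsive partner of MLX, had 42.6 and 39.9 CPM at 0 h, 43.2 and 43.0 CPM at 3 h, and 52.5 and 48.5 CPM at 6 h, a rise of 0.29 ± 0.057 at 6 h against 0 h (SE, edgeR adjusted p = 0.00143). Mlxipl, its liver-type relative, averaged 0.912 ± 0.0749 CPM at 6 h and 1.27 ± 0.0313 CPM at 0 h (SD, n = 2 each), and Bmyc, a short Myc relative, averaged 5.32 ± 0.236 CPM at 6 h and 4.04 ± 0.146 CPM at 0 h (SD, n = 2 each). Neither was called, with edgeR adjusted p of 0.346 for Mlxipl and 0.0902 for Bmyc, and Mycs, an intronless Myc relative, had 0 counts in every library.

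Of 15 genes for MYC cofactors and MYC turnover, 1 rose and 3 fell at 6 h against 0 h, where 22.3% of all genes were called, and their median was -0.08 on the log2 scale. Trrap, the scaffold of the acetyltransferase complexes that MYC recruits, rose by 0.12 ± 0.032, while Wdr5, which helps place MYC on chromatin, fell by 0.14 ± 0.038 (SE). The edgeR adjusted p was 0.0118 for Trrap and 0.0125 for Wdr5. Zbtb17, the MYC partner MIZ1, fell by 0.19 (edgeR adjusted p = 0.0395). Of the 16 tested genes for SIN3 and NCOR corepressors, the machinery that MXD proteins recruit, 3 rose and 1 fell at 6 h against 0 h, where 10% of all genes were called higher and 12.3% lower, and their median was 0.05. Ing2, a chromatin reader of the SIN3 complex, averaged 21.6 ± 0.329 CPM at 6 h and 16.7 ± 0.448 CPM at 0 h (SD, n = 2 each), a rise of 0.37 ± 0.073 (SE, edgeR adjusted p = 0.00161). Ing1 rose by 0.22 (edgeR adjusted p = 0.00247) and Sap30 by 0.17 (edgeR adjusted p = 0.0232), and Sin3b differed by -0.17 (edgeR adjusted p = 0.0159), lower at 6 h. No gene of either list was called at 3 h against 0 h, with medians of 0.04 for the cofactors and 0.08 for the corepressors.

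PRC1.6 and its germline targets were listed next. Of 10 partners of MGA in the complex, 1 fell and none rose at 6 h against 0 h, where 22.3% of all genes were called, and their median was -0.05. That one was L3mbtl2, a core chromatin-binding subunit, which averaged 139 ± 0.553 CPM at 6 h and 155 ± 4.98 CPM at 0 h (SD, n = 2 each) and fell by 0.16 ± 0.039 on the log2 scale (SE, edgeR adjusted p = 0.00772). Of 17 tested germline genes known as PRC1.6 targets, 2 rose and none fell at 6 h against 0 h, where 10% of all genes were called higher and 12.3% lower, and their median was 0.01. At 3 h against 0 h their median was 0.15 and none was called, where 0.140% of all genes were called. At 6 h against 3 h none of the 17 rose and 2 fell, with a median of -0.15. Of all genes 9.89% were called higher and 11.8% lower in that comparison. Meioc, a regulator of meiotic entry, had 3.32 and 3.15 CPM at 0 h, 4.68 and 5.04 CPM at 3 h, and 5.13 and 5.42 CPM at 6 h, higher at 6 h by 0.71 ± 0.156 (SE, edgeR adjusted p = 0.00346). Both 3 h libraries of Meioc lay above both 0 h libraries, with a difference of 0.59 (edgeR adjusted p = 0.165). Sohlh2, a germ cell transcription factor, had 3.42 and 3.11 CPM at 0 h, 3.83 and 3.89 CPM at 3 h, and 5.31 and 4.72 CPM at 6 h, higher at 6 h by 0.62 ± 0.161 (SE, edgeR adjusted p = 0.0106).

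Ribosome and growth genes were the MYC targets examined. Of 30 such genes, mainly for nucleolar work, nucleotide synthesis and translation, 11 fell and 1 rose at 6 h against 0 h, where 12.3% of all genes were called lower and 10% higher, and their median was -0.07 beside 0.0019 over all genes. Gnl3, the nucleolar GTPase nucleostemin, had 286 and 282 CPM at 0 h, 279 and 291 CPM at 3 h, and 231 and 238 CPM at 6 h. It fell by 0.27 ± 0.036 at 6 h against 0 h (SE, edgeR adjusted p = 3.81e-05), and Wdr43, a factor of ribosome small-subunit assembly, fell by 0.23 ± 0.034 (SE, edgeR adjusted p = 0.000125). Odc1, the first enzyme of polyamine synthesis, fell by 0.17 (edgeR adjusted p = 0.00235), as did Nop58, a core box C/D snoRNP protein (edgeR adjusted p = 0.00254). Tert, the telomerase reverse transcriptase, was the 1 that rose, with 21.2 and 21.7 CPM at 0 h, 19.1 and 22.2 CPM at 3 h, and 29.0 and 26.1 CPM at 6 h, a rise of 0.36 against 0 h (edgeR adjusted p = 0.00384). After 3 h none of the 30 was called against 0 h, where 0.140% of all genes were called, and their median difference was 0.0016. Of the MLX and MLXIP targets, Arrdc4, an arrestin-domain protein that restrains glucose uptake, averaged 38.1 ± 1.49 CPM at 6 h and 44.4 ± 0.613 CPM at 0 h (SD, n = 2 each) and fell by 0.22 (edgeR adjusted p = 0.00675). Txnip, its better-known relative, averaged 129 ± 7.64 CPM at 6 h and 140 ± 3.58 CPM at 0 h (SD, n = 2 each), a difference of -0.12 (edgeR adjusted p = 0.0643). Against 3 h both were lower at 6 h, where Arrdc4 fell by 0.25 (edgeR adjusted p = 0.00327) and Txnip fell by 0.22 (edgeR adjusted p = 0.00237).

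**Figure D4:**
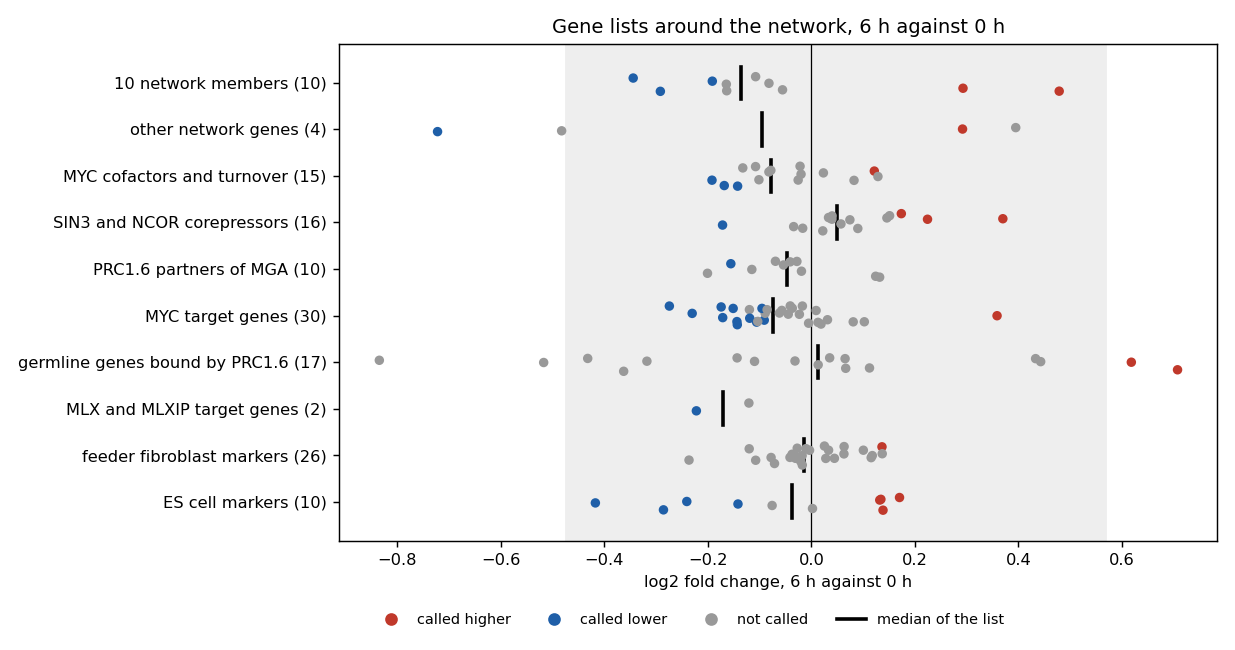
log2 fold change at 6 h against 0 h for each tested gene of the 10 members and of the other lists, with points coloured by edgeR's call, a bar at each list's median and grey shading over the central 90% of all genes tested. Most points lie inside the shaded band of -0.47 to 0.57, the MYC targets have their median at -0.07, Mnt (-0.72), Mlxipl (-0.48), Tdrd1 (-0.84) and Stra8 (-0.52) lie below the band, and Meioc (0.71) and Sohlh2 (0.62) lie above it. Mlxipl, Tdrd1 and Stra8 were not called. Tdrd1 averaged 0.325 CPM at 6 h and 0.555 CPM at 0 h, and Stra8 0.607 and 0.863 CPM. Tdrd1 had 0.107 CPM in replicate 2 of 6 h, under the 0.164 CPM that 3 counts were worth there.

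Genes with the same course over the 6 libraries were sought for the member that rose most and the one that fell most, by the distance between log2 CPM values centred on each gene's mean, among 9633 genes. Nearest to Mxi1 were Cdca7l at a distance of 0.024, Pim2 at 0.0917, Clcc1 at 0.0954, Cnot6l at 0.121 and Mgat4a at 0.129. Cdca7l was 0.32 above 0 h at 3 h and 0.49 above it at 6 h on the log2 scale. Pim2, a LIF-responsive survival kinase in ES cells, was 0.26 and 0.48 above 0 h at the same times, and Cnot6l, a deadenylase subunit of CCR4-NOT, was 0.31 and 0.56 above it. Nearest to Mga were Plekhf2 at 0.035, Ercc8 at 0.0374, Dbf4 at 0.0385, Slc8b1 at 0.0448 and Fen1 at 0.0522. Dbf4, the regulatory subunit of the replication kinase CDC7, averaged 158 CPM at 6 h and 198 CPM at 0 h, and Fen1, the flap endonuclease of DNA replication, averaged 66.0 CPM at 6 h and 82.9 CPM at 0 h. These distances describe likeness over 6 libraries and nothing more.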

How the data were processed

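PolyA RNA was sequenced single-end from stranded libraries, 2 for each of 0, 3 and 6 h with 5-Ph-IAA. The deposited values are unnormalized read counts, 1 whole number for each Ensembl gene and library. Per the submitters' processing notes, reads passed through fastp 0.22.0, HISAT2 2.2.1 and featureCounts 2.0.3 on GRCm38 (mm10). How multi-mapping reads were handled, which strand setting was used and which annotation release is not stated there, so counts of overlapping genes and near-identical copies are uncertain. Symbols for 55227 of 55487 IDs, positions and 3′ UTRs came from GENCODE M21, and promoters and microRNAs from RefSeq.

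All 6 libraries were fitted together in R 4.3.3 with edgeR 4.0.16: filterByExpr (minimum count 10), TMM factors and the quasi-likelihood test, two-sided, with Benjamini-Hochberg adjustment over the 15748 genes kept, which held 99.9% of counts. A gene was called at an adjusted p under 0.05, with 3 residual and 13.7 prior degrees of freedom. The SE is the size of the log2 fold change over the square root of F. DESeq2 1.42.0, limma 3.58.1 and further settings served as alternatives, and the fit was tested on simulated data. The comparisons with 0 h share those 2 libraries, so their values stand side by side and no overlap between them is given as a result.

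The members and all gene lists were chosen with earlier results of these data known. Named genes were all members, up to 4 called genes with the smallest adjusted p at 6 h against 0 h of each other list, every gene of lists of 5 or fewer, the 3 most abundant fibroblast and ES cell markers, and the 5 genes nearest in course to the members with the largest rise and fall. Tert was named outside this rule, after its value was seen, as the 1 MYC target that rose, as were Tdrd1 and Stra8, which lie outside the central band of all genes. The values of 1 gene that the rule names are not reported here.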

Additional observations from a re-analysis of the deposited data

Results flagged for a closer look

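For 4 members the change at 6 h differed from the change at 3 h, both taken against the same 0 h libraries, by the test of 6 h against 3 h in edgeR. The 6 h change minus the 3 h change was 0.19 for Mycn, -0.25 for Max, -0.38 for Mxd3 and -0.32 for Mga on the log2 scale. For Mycn, Max and Mga the difference had the sign of the 6 h change against 0 h. Both values use the same 6 h libraries, so the shared sign is no separate evidence. The Mxd3 value joins a 3 h level above both other times, which was not called against 0 h. The summed fibroblast markers stood at 26570 and 23820 CPM at 6 h and 23840 and 23320 CPM at 3 h, and their part in these differences was not tested beyond the fit with their level as a covariate.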

How the results depend on the processing

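Myc, Mycn, Mxi1 and Mga were called at 6 h against 0 h in all 16 alternatives, and Mga at 6 h against 3 h as well. Of the member values, 425 stayed on their side of the threshold with their direction, 26 lost the call, 11 gained it and 18 changed direction, none of these 18 a called value, and the cause was not tested.

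At 3 h against 0 h 22 genes were called, with 0 without a filter on low counts (1839 at an unadjusted p under 0.05 in edgeR), 12 in DESeq2, 242 with a replicate block, 74 with only the 4 libraries compared, and 4 to 249 when a library was left out (12 and 249 without replicate 1 or 2 of 0 h, 4 and 7 for 3 h, 89 and 88 for 6 h). The member count was 1, with 0 in edgeR without the filter (3 at an unadjusted p under 0.05), in DESeq2 (2) and with the fibroblast marker mean as a covariate (4), 2 with the replicate block, with the 4 libraries and in the legacy edgeR test, which was added after the data were seen, and 0 to 2 when a library was left out. limma voom called Myc in place of Mxi1. Over all genes tested, same-numbered libraries hardly deviated together from the mean of their time (correlations of 0.0372, 0.0401 and -0.0212). The summed fibroblast markers, however, were higher in replicate 1 than in replicate 2 at every time. Whether same-numbered libraries share more than a number was therefore not settled.

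At 6 h against 0 h 3515 genes were called, with 2029 without the filter and 1589 in DESeq2. Without scaling factors 2128 were higher and 1457 lower, against 1575 and 1940 with TMM. At 6 h against 3 h 3414 genes were called, with 1725 without the filter, 1355 in DESeq2, 1650 with the fibroblast covariate and 1514 to 3706 when a library was left out. The member count was 4 there, 2 without the filter, in DESeq2 and with the covariate, and 1 to 4 when a library was left out. The gene counts outside 1.5 times that value were 1712 and 1514 when replicate 1 or 2 of 3 h was dropped and 2157 when replicate 1 of 6 h was.

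With the fibroblast covariate, the 3 h against 0 h values turned to -0.0551 for Mycn, -0.1037 for Max, -0.0294 for Mxd1 and 0.0599 for Mxd4, and the 6 h against 3 h values to -0.0733 for Myc, -0.0537 for Mycl, -0.1156 for Mxd4 and 0.0162 for Mlx. Leaving out a library gave, at 3 h against 0 h, -0.0041 to 0.1192 for Max, -0.1069 to 0.1365 for Mxd1 and -0.0616 to 0.0087 for Mga. At 6 h against 0 h it gave -0.2053 to 2e-04 for Mycl and -0.1164 to 0.0156 for Mxd4. At 6 h against 3 h it gave -0.0539 to 0.0892 for Myc, -0.0092 to 0.1962 for Mycl and -0.0428 to 0.0891 for Mxd4. In these fits the lone library of a time is assumed to vary like the other times.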
